A study of Bos grunniens and Bos taurus with 11 samples.

Results

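The miRNA profiles of yak lung at 5000 m (group T3) and at 3400 m (group T1) were compared across every name listed in the small RNA tables. The comparison used 6 of the 11 small RNA libraries of the study, the 3 labelled 5000 m and the 3 labelled 3400 m, chosen by their altitude labels. All 6 came from indigenous adult male yaks, with 1 library per animal and no treatment. The remaining libraries, 3 from yaks at 4200 m (T2) and 2 from Zaosheng cattle at 1500 m (CON), entered the statistical model to share its estimate of the spread, and their levels are named where they bear on a result. The animals from 3400 m came from a single county and those from 5000 m from another, so altitude cannot be told apart from place, herd or forage. The T2 animals came from 3 counties, so their spread also includes place. With whole lung tissue, fewer cells of a type and less RNA per cell cannot be told apart either.

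MiRNAs are short RNAs that guide Argonaute proteins to partly complementary messenger RNAs and lower their translation or stability. In animals, a hairpin precursor is cut by Drosha and Dicer into a duplex whose arms, written 5p and 3p, can each give a mature miRNA, and usually one arm dominates. In lung, miRNAs of endothelium, smooth muscle and airway epithelium are well known, as is miR-210, which is induced by low oxygen. Plant miRNAs such as miR166 and miR396 regulate plant developmental genes, and their families are shared by most land plants.

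The tables held 1377 names, of which 987 had at least 1 read in the 6 libraries. Of the 1377, 1046 were predicted from the reads and are given here by their numbers, such as m1080-5p, and 331 carried a miRBase name with 1 of 50 plant or algal prefixes. None of 40 animal miRNAs looked for by name, miR-210, miR-126, miR-143, miR-145, the miR-200 family and retinal miR-183 among them, matched a listed name. As every listed name was a number or had a plant or algal prefix, no animal name could match. The search therefore does not show whether these miRNAs were present, and the lung label could not be checked against tissue markers. The tissue labels of all samples give lung, while the extraction text of the same records names the retina. No sequence of any name was available here, and names that stand for near-identical copies could not be recognised.

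Depth did not separate the altitudes, although T1 1, T3 1 and T3 2 had fewer reads than T1 2, T1 3 and T3 3. The reads recovered from the tables were 1536041, 2428679 and 2527924 in T1 1, T1 2 and T1 3, and 1744433, 1849522 and 2446991 in T3 1, T3 2 and T3 3. The mean was 2164215 ± 546273 in T1 and 2013649 ± 378946 in T3 (SD, n = 3 each), and 1 read was worth from 0.396 to 0.651 RPM (the reads of a name per 1000000 reads given to any listed name). Predicted names with at least 1 read numbered 314, 365 and 347 in T1 and 267, 307 and 316 in T3, an exact two-sided permutation p of 0.2, which was 1 after Benjamini-Hochberg adjustment over the 9 library measures tested. With 3 libraries against 3, an exact two-sided permutation test cannot give a p below 0.1. The animals were separate, so the spread between libraries includes differences between individuals, whereas read totals and intervals of shares cover counting error only. With 1 library per animal, differences between individuals cannot be told apart from differences in library preparation.

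The most abundant names differed more among libraries of 1 altitude than between the altitudes. The most abundant, m1080-5p, held 21.7%, 55.5% and 55.0% of the reads in T1 1, T1 2 and T1 3 and 12.8%, 10.1% and 58.2% in T3 1, T3 2 and T3 3. The T3 library with the highest share thus lay above all of T1, and the T1 library with the lowest share lay near T3 1 and T3 2. The mean share was 44.1 ± 19.3% in T1 and 27.0 ± 27.1% in T3 (SD, n = 3 each), a difference of -17.0 percentage points with an exact two-sided permutation p of 0.4. Counting error was small beside this spread, with a 95% Wilson interval of 21.7% to 21.8% in T1 1 and of 58.2% to 58.3% in T3 3.

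The next names were ordered the other way among the same libraries. The share of m1355-5p was 29.0%, 4.56% and 5.01% in T1 and 34.8%, 29.0% and 4.21% in T3. For m1356-5p the shares were 11.9%, 5.35% and 5.88% in T1 and 17.2%, 20.6% and 4.83% in T3. For m0753-5p they were 8.58%, 1.74% and 2.06% in T1 and 8.46%, 11.1% and 1.62% in T3. All 3 names were high in T1 1, T3 1 and T3 2 and low in T1 2, T1 3 and T3 3, so the altitudes overlapped for each. The name m0380-3p had the opposite order, with 0.428%, 3.30% and 3.35% in T1 and 0.346%, 0.616% and 3.73% in T3.

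The log2 differences of these names, T3 minus T1 on the log2(RPM + 1) scale, were -1.05 ± 0.64 (SE) for m1080-5p, 0.89 ± 0.82 for m1355-5p, 0.73 ± 0.61 for m1356-5p, 0.77 ± 0.80 for m0753-5p and -0.86 ± 0.90 for m0380-3p. The 95% interval for m1080-5p ran from -2.41 to 0.31 and that for m1355-5p from -0.86 to 2.65, and both intervals included no change as well as changes past 2-fold. The other 5 of the 10 most abundant names, m0360-5p, m0867-5p, m1302-3p, m1358-5p and m0269-3p, had differences from -0.29 to 0.24, and each changed sign with at least 1 other scaling, test or left-out library. None of the 10 separated the altitudes. The 10 names highest in each library together held 91.9%, 84.4% and 85.4% of the reads in T1 and 92.3%, 90.7% and 85.4% in T3, with an exact two-sided permutation p of 0.6.

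**Figure D1:**
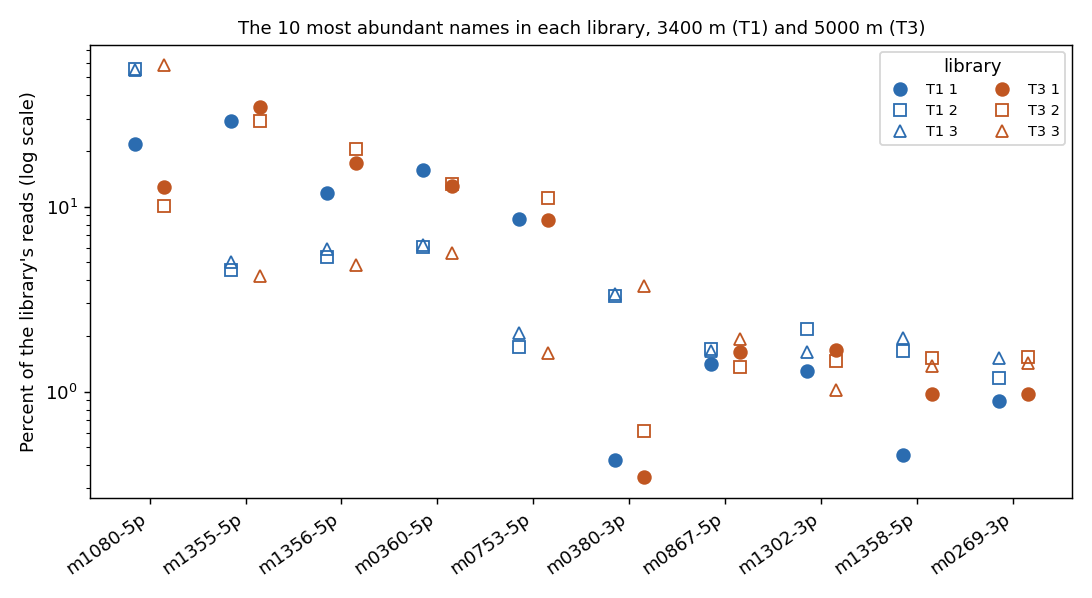
Share of each library's reads (percent, log axis) held by the 10 names with the highest mean, in the 3 libraries of T1 (3400 m, blue) and the 3 of T3 (5000 m, orange), each symbol being 1 library. For m1080-5p the T3 libraries lie at 12.8%, 10.1% and 58.2% and enclose the T1 values of 21.7%, 55.5% and 55.0%, and no name of the 10 separates the colours.

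The same arrangement held over the whole profile. Spearman's rank correlation over the 303 names averaging 1 RPM or more, which are not independent replicates, averaged 0.822 over the 6 pairs of libraries from 1 altitude and 0.833 over the 9 pairs from different altitudes. The highest value was 0.935, between T1 2 and T1 3, and the lowest 0.733, between T3 1 and T3 3. The closest library had the same altitude for 4 of the 6 libraries. The exceptions were T1 1, closest to T3 1 at 0.876, and T3 3, closest to T1 2 at 0.917. T1 1, T3 1 and T3 2 were also the libraries with the fewest reads, and the part of depth in this arrangement was not tested. Whether libraries or labels were exchanged cannot be told from the tables, and every difference between T3 and T1 given here takes the altitude labels as they stand.

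Expressed as names that were at least 2-fold apart on the same scale, T1 2 and T3 3 differed in 63 of 303 names although they came from different altitudes. Within an altitude, T1 1 and T1 2 differed in 167 names and T3 1 and T3 3 in 192. The pair T1 2 and T1 3 differed in 69. The median SD within a group was 0.85 in T1 and 0.90 in T3 on the log2 scale, and no 2 libraries agreed within counting noise, the lowest chi-square per degree of freedom being 56.7.

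**Figure D2:**
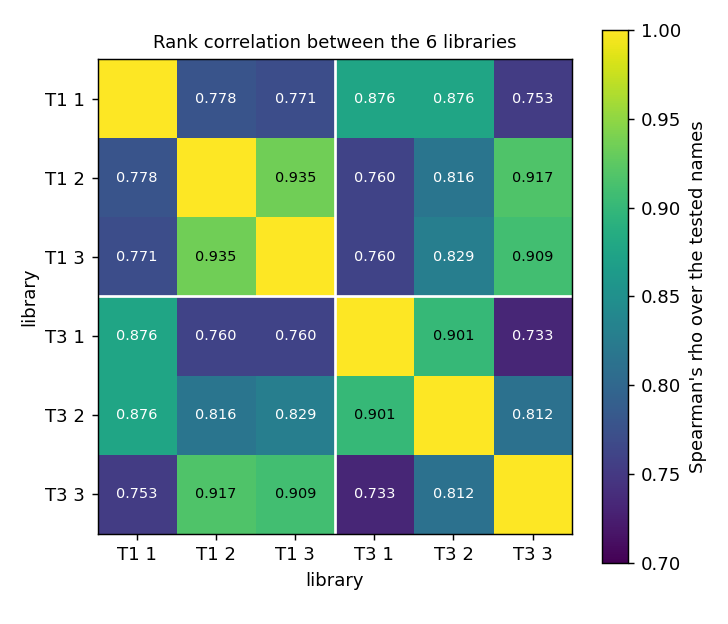
Spearman's rank correlation over the 303 tested names for each pair of the 6 libraries, coloured from 0.7 to 1, with lines dividing T1 from T3. The pairs T1 1 with T3 1 (0.876) and T1 2 with T3 3 (0.917) cross the altitudes and exceed T1 1 with T1 2 (0.778) and T3 1 with T3 3 (0.733), which do not.

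The question put to the comparison was which miRNAs differ between yaks of the highest and the lowest yak altitude sampled. Of the 303 names tested, each averaging 1 RPM or more over the 6 libraries, 0 passed a Benjamini-Hochberg adjusted p of 0.05 with a 2-fold change by limma, a background of 0%, and each had an adjusted p of 0.998. On the recovered reads, edgeR and DESeq2 also called 0 names. The study, using DESeq2, lists 6 miRNAs as up and 11 as down for T1 against T3. Its methods state a limit on the adjusted P and its abstract a limit on the P-value, each with a 2-fold change. The study's counts come from a pairwise comparison, and its text does not state which group up refers to. The edgeR and DESeq2 fits here used recovered reads of names averaging 1 RPM or more, in a model of all 11 libraries. The counts are therefore not directly comparable. At an unadjusted limma p under 0.05 with a 2-fold change, 8 names passed, or 2.64% of those tested, with 1 higher in T3 (0.33%) and 7 lower (2.31%). By the same limits edgeR passed 6 names and DESeq2 passed 11. Single libraries moved this count, to 32 without T1 1 and to 37 without T3 3, the libraries that lay closest to the other altitude, and to 3 or 4 without any other. In the limma fit on the 6 libraries alone, 5 of the 8 names stayed under this unadjusted limit and 3 did not. Those under it were m0270-5p at 0.0075, m1412-3p at 0.017, m0591-5p at 0.0217, m1326-5p at 0.0275 and m1412-5p at 0.0468. Those not under it were m0860-5p at 0.0508, m0366-5p at 0.0882 and ath-miR5658_R1-19L21_8T-A at 0.0817. In that fit the Benjamini-Hochberg adjusted p of each of the 8 was 0.995. These 8 names have the lowest p-values of a list in which none was called.

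In RPM the predicted names lay lower in T3 on balance, and over all names both the size and the sign of the median depended on the scaling or test. Of the 303 names, 181 had a lower mean log2 value in T3 and the others a higher one, with a median difference of -0.16. The 244 predicted names had a median of -0.26, with 84 higher and 160 lower, and the 59 plant-prefixed names a median of 0.06, with 38 higher and 21 lower. The median of all names moved to -0.01 with RLE scaling, to -0.11 with TMM scaling, and to 0.05, the opposite sign, by DESeq2 on the recovered reads. When m1080-5p was removed before scaling the median was -0.50, over a larger set of 371 names that reached 1 RPM after the removal. Each difference below should be read against these medians. Past 2-fold lay 11 names higher in T3 (3.63%) and 59 lower (19.5%).

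The data left room for sizeable differences. The median SE was 0.89 and the median half-width of the 95% interval was 1.90 on the log2 scale. For 0 of the 303 names did the interval stay within a 2-fold change in either direction, and for 74 it stayed within 4-fold. A fit on the 6 libraries alone had a median SE of 0.76, with 3 intervals within 2-fold and 109 within 4-fold.

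All 3 libraries of one altitude lay above all 3 of the other for 18 names, or 5.94% of the 303. These were 7 names higher in T3 (2.31%) and 11 lower (3.63%). For a single name, such a separation corresponds to an exact two-sided permutation p of 0.1. It therefore does not by itself mark a name as different. With m1080-5p removed before scaling the counts were 3 higher and 18 lower, out of 371 names. That set was larger because the limit of 1 RPM was applied after the removal.

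**Figure D3:**
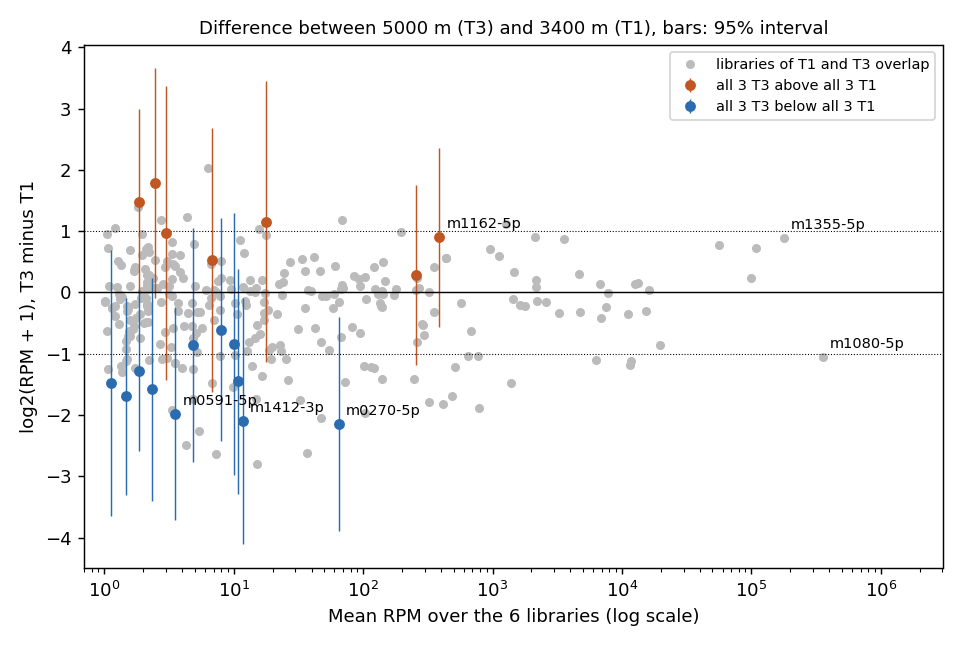
Difference in log2(RPM + 1) between T3 and T1 against the mean RPM over the 6 libraries (log axis) for the 303 tested names, with dotted lines at a 2-fold change. Orange and blue points with 95% intervals are the 7 and 11 names whose libraries did not overlap, grey points the others, and the differences run from -2.80 to 2.03 without any name passing an adjusted p of 0.05.

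Among the names with lower values at 5000 m, m0270-5p was the most abundant that did not overlap and is the minor arm of its precursor. It was at 106.8, 82.3 and 122.2 RPM in T1 and at 10.9, 22.7 and 44.1 RPM in T3, from 164, 200 and 309 reads against 19, 42 and 108. Every T1 library lay above every T3 library, and the mean of 104 ± 20.1 RPM in T1 was 4.01-fold that of 25.9 ± 16.8 RPM in T3 (SD, n = 3 each). The log2 difference was -2.15 ± 0.82 (SE), with a 95% interval of -3.90 to -0.40, an unadjusted limma p of 0.0195 and a Benjamini-Hochberg adjusted p of 0.998. Under the alternatives the difference ran from -2.62 to -1.66, the value nearest 0 being that without T3 1. At 4200 m the name was at 41.0, 78.7 and 109 RPM, values that span the gap between T1 and T3.

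The other arm of this precursor did not separate the altitudes. The major arm m0270-3p was at 2497, 11221 and 9565 RPM in T1 and at 2600, 3778 and 11425 RPM in T3, low in T1 1, T3 1 and T3 2, as m0380-3p also was. Its log2 difference was -0.42 ± 0.91 (SE), and it changed sign without T3 1 and with 1 surrogate variable. The 5p arm made up 4.10%, 0.729% and 1.26% of the precursor's reads in T1 and 0.417%, 0.597% and 0.385% in T3. The shares of the altitudes did not overlap, but the pair nearest each other, T1 2 with 200 reads of the 5p arm and T3 2 with 42, lay within counting error. Their 95% Wilson intervals were 0.635% to 0.836% and 0.442% to 0.807%.

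Both arms of m1412 were lower in T3. The 3p arm was at 9.11, 34.2 and 16.6 RPM in T1 and at 1.72, 4.32 and 4.50 RPM in T3, from 14, 83 and 42 against 3, 8 and 11 reads. The mean of 19.97 ± 12.9 RPM in T1 was 5.68-fold that of 3.51 ± 1.56 RPM in T3 (SD, n = 3 each), and the log2 difference was -2.10 ± 0.94 (SE), with an unadjusted limma p of 0.0417. The 5p arm had 4, 14 and 1 reads in T1 and 0 in every T3 library. Its T1 mean of 2.92 ± 2.70 RPM was 1.92-fold a level of 3 reads in each T3 library. This ratio allows for counting error in T3 only, and T1 3 had 1 read. For the 5p arm the log2 difference was -1.70 ± 0.76 (SE), with an unadjusted limma p of 0.0405. At 4200 m the 3p arm was at 124, 25.8 and 30.0 RPM, where T2 1 was the highest yak library and T1 2 lay above the other two.

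A further 4 of the 8 names rested on few reads. The name m0591-5p was at 5.21, 8.23 and 4.75 RPM in T1 and at 0.573, 0 and 2.45 RPM in T3, and its libraries did not overlap. The log2 difference of m0591-5p was -1.97 ± 0.82 (SE), with an unadjusted limma p of 0.0288. The name m1326-5p was at 4.56, 22.2 and 11.5 RPM in T1 and at 0, 0 and 5.72 RPM in T3, where T3 3 exceeded T1 1. For m1326-5p the log2 difference was -2.63 ± 1.06 (SE), with an unadjusted limma p of 0.0248, and its other arm, m1326-3p, was at 0.651, 48.2 and 34.8 RPM in T1 and at 0.573, 5.41 and 47.4 RPM in T3. That arm had the low values in T1 1, T3 1 and T3 2 that m0270-3p also had.

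The name m0860-5p had the lowest p and a split within T1. It had 0, 21 and 43 reads in T1, or 0, 8.65 and 17.0 RPM, and 0 reads in all 3 T3 libraries. The T1 mean of 8.55 ± 8.505 RPM was 5.62-fold a level of 3 reads in each T3 library, yet T1 1 equalled T3 at 0 reads. The log2 difference was -2.48 ± 0.89 (SE), with an unadjusted limma p of 0.0136 and a Benjamini-Hochberg adjusted p of 0.998. Without T1 1 the difference was -3.72 and its limma adjusted p 0.0293, the only call made by leaving out any library. The name was also at 0 in the 3 libraries from 4200 m, while both cattle libraries had it, at 10.3 and 14.3 RPM.

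The name m0366-5p was at 0, 25.1 and 6.72 RPM in T1 and at 0, 0 and 0.817 RPM in T3. Its log2 difference was -2.26 ± 0.96 (SE), with an unadjusted limma p of 0.0319. T1 1 again lay with T3 1 and T3 2, at 0 reads.

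Outside the 8 names, m0811-5p and ata-miR398g-3p_R1-18L21 had lower values in T3 without overlap at a mean of at least 10 RPM. The first was at 18.2, 17.7 and 11.5 RPM in T1 and at 2.29, 5.95 and 8.58 RPM in T3, a 2.82-fold ratio of means. Its log2 difference was -1.45 with a 95% interval of -3.28 to 0.38. The second bears the name of a plant miR398, a family that targets copper/zinc superoxide dismutase messages in plants. It was at 19.5, 11.1 and 9.49 RPM in T1 and at 8.60, 6.49 and 5.31 RPM in T3, a narrow gap, with a log2 difference of -0.84 and a 95% interval of -2.98 to 1.30. That fit included CON 1 and T2 2, both at 0 RPM for this name. In the fit on the 6 libraries alone the interval was -2.17 to 0.49.

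Of the 7 names higher at 5000 m without overlap, 3 averaged 10 RPM or more, and m1162-5p had the most reads. It was at 258, 271 and 260 RPM in T1 and at 633, 560 and 335 RPM in T3. The T1 libraries were within a few percent of each other and all T3 libraries lay above them. The mean was 263 ± 7.205 RPM in T1 and 509 ± 155 RPM in T3 (SD, n = 3 each), a ratio of 1.94, with a log2 difference of 0.90 ± 0.69 (SE) and a 95% interval of -0.56 to 2.36. The unadjusted limma p was 0.21 in the model of all 11 libraries and 0.0645 in the limma fit on the 6 libraries alone. The 3 libraries from 4200 m were at 248, 413 and 161 RPM, on both sides of T1.

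The other 2 of these 3 names had a smaller ratio or less even libraries. The name m1272-3p was at 10.4, 9.06 and 10.3 RPM in T1 and at 25.2, 38.9 and 12.7 RPM in T3, with a log2 difference of 1.16 ± 1.07 (SE). The name m0122-5p was at 234, 240 and 214 RPM in T1 and at 318, 255 and 267 RPM in T3, with a log2 difference of 0.28 ± 0.69 (SE) that turned to -0.07 when m1080-5p was removed before scaling. For both the lowest T3 library lay just above the highest of T1.

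**Figure D4:**
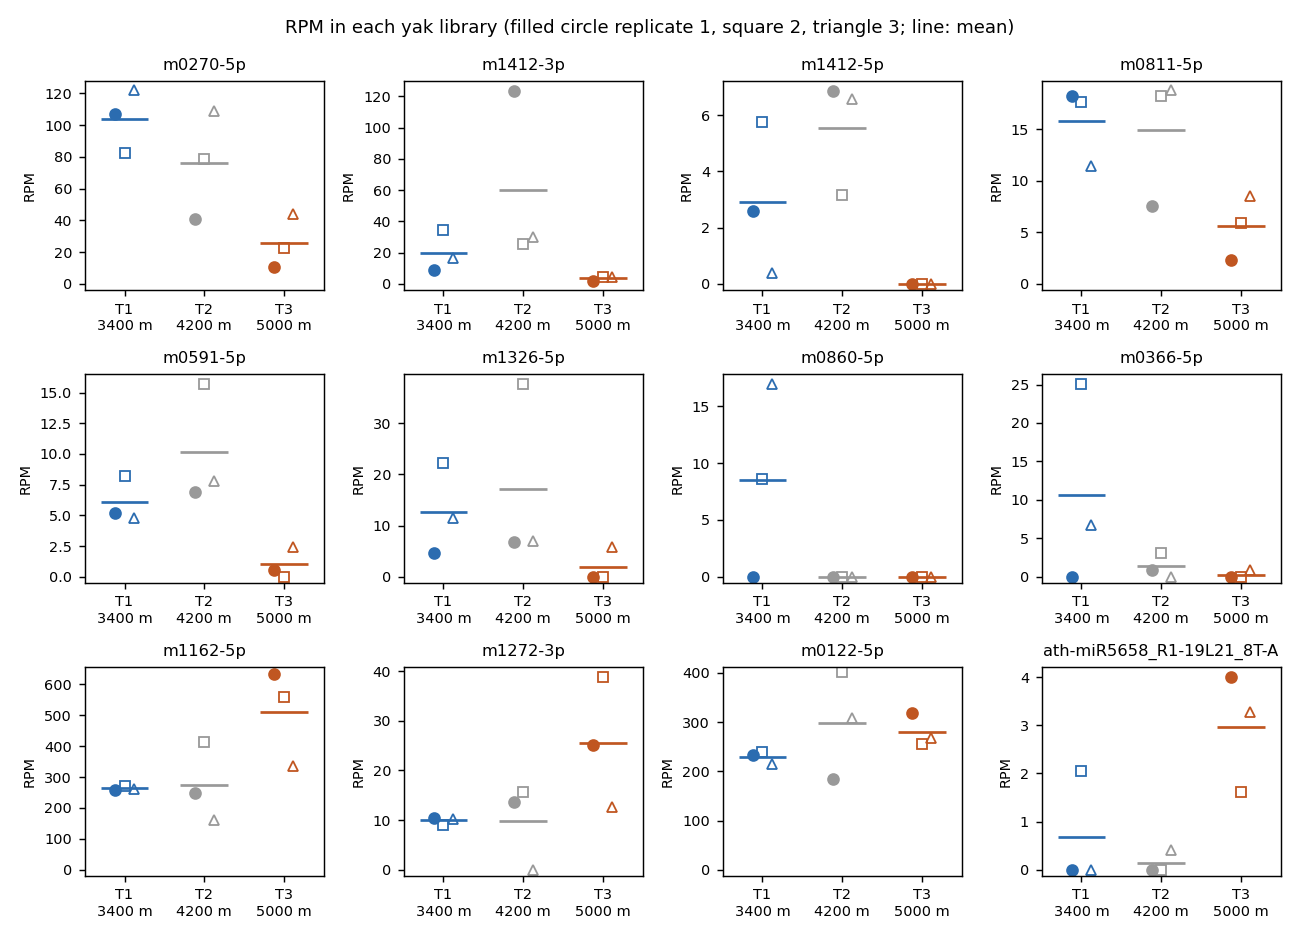
RPM in each yak library of T1 (3400 m), T2 (4200 m) and T3 (5000 m) for 12 names described in the text, 1 panel each with its own axis; symbols mark the replicate and lines the group mean. m0270-5p lies at 82.3 to 122.2 RPM in T1 and 10.9 to 44.1 RPM in T3, m1162-5p at 258 to 271 and 335 to 633 RPM, and in m0860-5p and m0366-5p the filled circle of T1 sits at 0 with T3.

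Both arms were tested for 74 precursors, and the arms differed in the same direction between the altitudes for 45 and in opposite directions for 29. This count depended on the scaling, with 41 in the same direction under RLE scaling, 43 under TMM scaling and 61 when m1080-5p was removed before scaling, a check chosen after seeing the data. The share of the 5p arm within a library, which does not depend on the scaling, did not overlap between the altitudes for 6 precursors, or 8.11% of the 74. It was lower in T3 for m0270, m1326 and m1412 and higher for m0676, m1234 and m1339, the last without T3 1, which had no read of either arm. For m1234 it was 99.0%, 98.3% and 98.8% in T1 and 99.2% in T3 3, while T3 1 and T3 2 had no read of the 3p arm. Apart from m0270 and m1234, at least 1 library had 3 reads or fewer over both arms, and the names m0676, m1234 and m1339 were chosen after their values were seen. Among the 10 most abundant names the other arm was tested for 7. Its log2 difference ran from -0.42 to 0.09 for m0380-5p, m1355-3p, m0360-3p, m0867-3p, m1302-5p and m1358-3p, and each of these changed sign with at least 1 alternative. It was -1.46 ± 1.52 (SE) for m0753-3p, against 0.77 for m0753-5p. The minor arm m0753-3p was at 1.95, 106 and 166 RPM in T1 and at 1.72, 4.87 and 158 RPM in T3, while its major arm was high where the minor arm was low.

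Presence and absence gave long lists of thinly covered names. Counting any name with a read as present, 312 were found at 3400 m only, 249 at 5000 m only and 426 at both. Of the names in T1 only, 275 or 88.1% were seen in a single library, and of those in T3 only, 233 or 93.6%, in each case with a median of 3 reads over the 3 libraries. Requiring 10 reads in at least 1 library of a group, 26 names met the limit in T1 only, 28 in T3 only and 213 in both. Of these 26, 21 had fewer reads in T3 rather than none, as did 25 of the 28 in T1.

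Detected in every library of one altitude and in none of the other were 4 names in T1 and 2 in T3, while 203 were seen in all 6 libraries. The 4 in T1 were m1412-5p, m1256-3p, with 3, 6 and 2 reads, m0889-3p, with 3, 1 and 2 reads, and m0986-3p, with 3, 1 and 1 reads. The 2 in T3 were lus-miR159b, with 3, 3 and 1 reads, and m0752-5p, with 1, 1 and 4 reads. Apart from m1412-5p these were named after their values were seen, and at such counts absence at the other altitude was not detectable as a difference.

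The share of reads under plant-prefixed names differed between the altitudes by less than the spread between libraries. They held 0.216%, 0.242% and 0.174% of the reads in T1 and 0.273%, 0.216% and 0.169% in T3. The mean was 0.211 ± 0.0342% in T1 and 0.219 ± 0.0519% in T3 (SD, n = 3 each), with an exact two-sided permutation p of 0.9. The 95% Wilson interval was 0.265% to 0.281% in T3 1, the highest library, and 0.164% to 0.174% in T3 3, the lowest, so the difference within T3 exceeded counting error. From 93 to 113 plant-prefixed names had reads in a T1 library and from 107 to 109 in a T3 library.

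Conserved plant families held between 76.7% and 80.2% of the plant-prefixed reads. Of 26 families looked for, 24 were listed, 21 had reads in the 6 libraries and 18 were tested as sums over their names. Of these sums 12 were higher and 6 lower in T3. Their median log2 difference was 0.08, beside 0.06 over the 59 single plant-prefixed names tested and -0.16 over all names. Of the 18 sums, 0 separated the altitudes or passed the limma test, with Benjamini-Hochberg adjusted p of 0.998. Over the 41 single names of these families that were tested, 28 were higher and 13 lower.

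The most abundant family was miR166, which targets class III HD-ZIP transcription factors in plants. Its sum was 542, 578 and 411 RPM in T1 and 676, 536 and 414 RPM in T3. The sum of miR482, which targets plant disease resistance genes of the NBS-LRR class, was 451, 486 and 353 RPM in T1 and 567, 395 and 338 RPM in T3. For miR396, which targets growth-regulating factors, the sum was 403, 453 and 314 RPM in T1 and 519, 430 and 313 RPM in T3. For miR159, which targets GAMYB-like factors, it was 146, 177 and 130 RPM in T1 and 186, 165 and 119 RPM in T3. In all 4 families T3 1 was the highest library and the third library of each altitude lay low.

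These sums were known more tightly from the 6 libraries than from all 11. In the fit on the 6 libraries the log2 difference was 0.07 with a 95% interval of -0.90 to 1.05 for miR166, -0.01 with an interval of -0.996 to 0.973 for miR482, 0.10 with an interval of -0.89 to 1.08 for miR396 and 0.04 with an interval of -0.96 to 1.05 for miR159. The median SE of the 18 sums was 0.56 in that fit and 1.04 in the fit on 11 libraries, which includes CON 1 and T2 2, a pair of libraries almost without these families. Among less abundant families, miR408, whose targets in plants include plantacyanin and laccases, summed to 28.0, 49.8 and 20.97 RPM in T1 and 52.2, 38.9 and 28.6 RPM in T3. The lowest unadjusted limma p of a family, 0.102, was that of miR164, a regulator of NAC transcription factors, at 4.56, 0.823 and 0.396 RPM in T1 and 0.573, 0 and 0 RPM in T3, where T1 1 was the only library above 1 RPM.

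**Figure D5:**
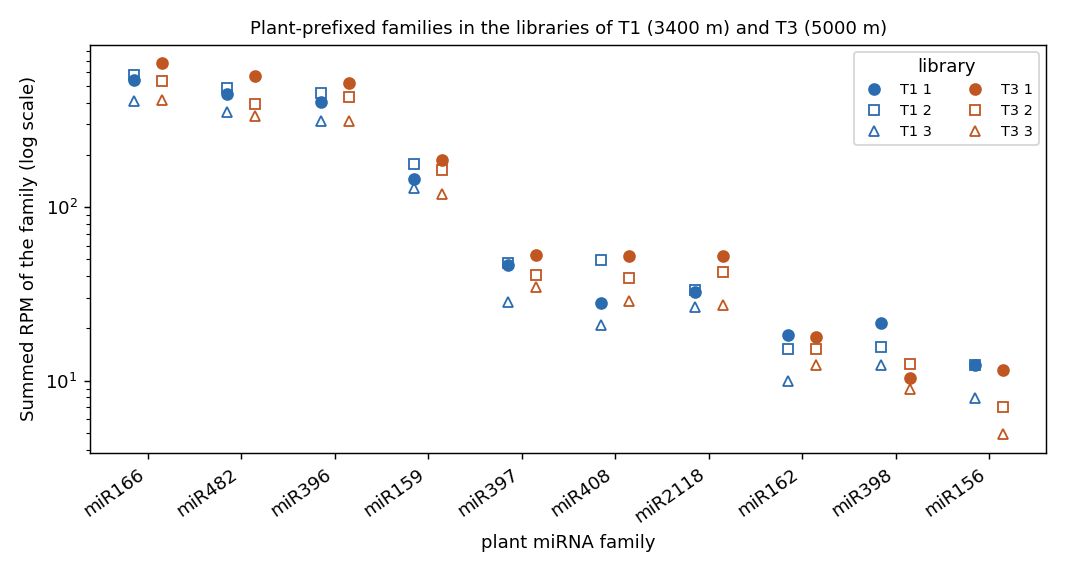
Summed RPM (log axis) of the 10 most abundant conserved plant families in each library of T1 (3400 m, blue) and T3 (5000 m, orange), each symbol being 1 library. The libraries of the altitudes overlap in every family, with miR166 at 411 to 578 RPM in T1 and 414 to 676 RPM in T3.

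The study's regulatory networks named 9 miRNAs, all plant-prefixed. A network was drawn from contrasts of yaks with cattle and another from contrasts among yak altitudes, and some names were in both. Since these choices were made on these samples, the values of the 9 are no independent evidence. Both networks are pooled in the counts that follow. Of the 9 names 8 could be tested, 7 with a higher and 1 with a lower value in T3. Their median log2 difference was 0.47, beside 0.06 over the 59 plant-prefixed names tested and -0.16 over all names. By limma 0 of the 8 passed the adjusted threshold and 1 had an unadjusted p under 0.05. That name, ath-miR5658_R1-19L21_8T-A, had 0, 5 and 0 reads in T1 and 7, 3 and 8 in T3, or 0, 2.06 and 0 against 4.01, 1.62 and 3.27 RPM. Its log2 difference was 1.40 ± 0.62 (SE), with an unadjusted limma p of 0.0385, and T1 2 lay above T3 2. The name was in both networks.

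One of the 9, ata-miR5168-3p, named only in the network of yaks against cattle, did not overlap between the altitudes. It was at 0, 0 and 1.98 RPM in T1 and at 3.44, 3.24 and 2.45 RPM in T3, from 0, 0 and 5 reads against 6 in each T3 library. The log2 difference of ata-miR5168-3p was 1.48 ± 0.71 (SE), with an unadjusted limma p of 0.0538. At these counts the gap between T1 3 and T3 3 is 1 read.

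With the most reads of the 9, ata-miR166d-3p_R1-20L21 had levels of 282, 292 and 212 RPM in T1 and of 351, 268 and 216 RPM in T3. Its log2 difference in the fit on the 6 libraries was 0.07 ± 0.41 (SE), with a 95% interval of -0.88 to 1.02. The name sly-miR482e-3p_R1-21L22 was at 114, 118 and 93.4 RPM in T1 and at 120, 96.2 and 87.9 RPM in T3, and gma-miR6300_R2-18L18 at 3.26, 7.41 and 7.52 RPM and at 8.03, 4.87 and 5.31 RPM. Their differences of -0.10 and 0.04 were far inside the spread, with an SE of 0.40 and 0.60 in the fit on the 6 libraries. The remaining 3 tested names, ppt-miR902f-3p_R15-1L20, stu-miR408b-5p_R4-21L21 and pab-miR396a, had log2 differences of 0.42, 0.62 and 0.52 with overlapping libraries. The last of the 9, ptc-miR6471_R18-4L21, had 2 reads in T3 1 and 0 in the other 5 libraries, and was too rare to test. Of the names in this paragraph, only these 3 tested names were in the network among yak altitudes. The others came from the network of yaks against cattle.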

How the data were processed

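Small RNA libraries of yak lung were analysed from the tables of each library. As the methods of the study state, the authors trimmed and filtered the reads, set aside other small RNAs by Rfam, named known miRNAs by miRBase, and placed the rest on the yak genome with Bowtie2 for prediction with MIREAP. The authors deposited RPM values, which sum to 1000000 over the 1377 names of a library. The versions of Bowtie2 and MIREAP are not given in the sources used here. By the study's read statistics, T1 1, T3 1 and T3 2 kept a larger share of raw reads after trimming than the other compared libraries, and the part of this in the results was not tested.

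All of the 4651 values above 0 in the 11 libraries were whole multiples of the smallest value of their library within 0.01 reads (100.0%), which gave read totals of 1536041 to 2527924 in the 6 libraries. Names averaging 1 RPM or more over T1 and T3 were tested with limma 3.58.1 (R 4.3.3) on log2(RPM + 1), with a variance trend and a mean per group over all 11 libraries. Calls required a 2-fold change and an adjusted p under 0.05 (Benjamini-Hochberg). Plant families were summed before the same fit, a step added after the data were seen. Shares were compared by exact permutation with scipy 1.17.1 in Python 3.11.15.

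Named were the 10 most abundant names, names with an unadjusted p under 0.05 and 2-fold change, non-overlapping names averaging 10 RPM or more, the 9 network miRNAs, conserved plant families, and the other arm of these names. Other names are marked. Members, lists and tests were chosen with earlier results of these data known.

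Alternatives were edgeR 4.0.16 and DESeq2 1.42.0 on recovered reads, RLE and TMM scaling, removal of m1080-5p before scaling, filters, pseudocounts of 0.1 and 10, subsets of libraries or names, a block for the replicate number, and omission of each library in turn. A fit with 1 surrogate variable from sva 3.50.0 and other measures of library likeness were chosen after seeing the data. The scripts were tested on simulated data.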

Additional observations from a re-analysis of the deposited data

How the results depend on the processing

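The number of called names stayed at 0 under every scaling, test, filter, pseudocount and subset tried, and with 1 surrogate variable. It was 8 without adjustment of p, and 0 to 1 when each library was left out, the call being m0860-5p without T1 1, at a log2 difference within -3.72 to -1.64 over the left-out libraries. Names passing an unadjusted p and a 2-fold change numbered 32 without T1 1 and 37 without T3 3, against 3 or 4 without any other library and 8 with all. Replicate numbers recur between the groups, but the animals of each altitude were separate, so the numbers do not pair them. The correlations of same-numbered deviations were 0.61, -0.41 and 0.54, which with 3 libraries per group cannot decide on pairing. With a replicate block 0 names were called and 9 passed an unadjusted p.

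The counts of names detected in T1 only, T3 only and both were 26, 28 and 213 at a minimum of 10 reads, and 4, 2 and 203 when every library of a group was required. The difference in the plant-prefixed share, 0.0089 percentage points, ran from -0.018 to 0.034 over the left-out libraries and was negative without T1 3 or T3 1.

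Of 41 tested names, 21 kept the sign of their log2 difference in all alternatives, among them m1080-5p, m1355-5p, m0270-5p, both arms of m1412 and m1162-5p. Removal of m1080-5p before scaling reversed m0360-5p to -0.12, m0867-5p to -0.32, m1358-5p to -0.20, m0269-3p to -0.21, m0122-5p to -0.071, ata-miR166d-3p_R1-20L21 to -0.28, gma-miR6300_R2-18L18 to -0.28, m1302-5p to -0.31 and m1358-3p to -0.28. DESeq2 reversed m1302-3p to 0.045, ppt-miR902f-3p_R15-1L20 to -0.0007, sly-miR482e-3p_R1-21L22 to 0.14, m1355-3p to 0.16 and m0380-5p to 0.18. By edgeR the same names other than m1302-3p were at -0.064, 0.0062, 0.20 and 0.065. RLE scaling gave 0.088 for sly-miR482e-3p_R1-21L22 and 0.19 for m0380-5p, TMM scaling 0.059 for m0380-5p, and a pseudocount of 10 gave 0.0094 for m1355-3p. With 1 surrogate variable the values were -0.93 for ata-miR166d-3p_R1-20L21, -0.24 for gma-miR6300_R2-18L18, 0.13 for m1355-3p, 0.20 for m0380-5p, 0.18 for m0270-3p and 0.027 for m1326-3p.

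Leaving out single libraries gave ranges that crossed 0 for m0360-5p (-0.0004 to 0.69), m0867-5p (-0.083 to 0.17), m1358-5p (-0.51 to 0.54), m0269-3p (-0.055 to 0.34), ata-miR166d-3p_R1-20L21 (-0.11 to 0.24), gma-miR6300_R2-18L18 (-0.29 to 0.21), m1355-3p (-0.57 to 0.20), m0360-3p (-0.45 to 0.042), m0380-5p (-0.39 to 0.21), m0867-3p (-1.27 to 0.067), m1302-5p (-0.34 to 0.32), m1358-3p (-0.44 to 0.96), m0270-3p (-1.10 to 0.027), m1326-3p (-2.41 to 0.30), m1272-5p (-0.18 to 0.87) and m1162-3p (-0.10 to 0.81). The cause of these reversals was not tested. Depth limited names near 1 RPM, where 1 to 4 reads decide a value, while for the abundant names the spread between libraries exceeded counting error.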

Other observations

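The largest positive and the largest negative log2 difference among the 303 names belonged to names outside the rule, chosen here after their values were seen, and neither passed the limma test. The name m0859-5p was at 0, 0.412 and 5.93 RPM in T1 and at 1.72, 11.4 and 18.8 RPM in T3, with a log2 difference of 2.03 and a 95% interval of -0.49 to 4.54. The name m1304-5p was at 7.81, 30.9 and 28.9 RPM in T1 and at 0, 0 and 23.7 RPM in T3, with a log2 difference of -2.80 and a 95% interval of -5.63 to 0.02. For both the libraries of the altitudes overlapped, since T1 3 exceeded T3 1 in the first and T3 3 exceeded T1 1 in the second.

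In the plant family miR159, whose summed level had a log2 difference of 0.04, the name lus-miR159c, also chosen after its values were seen, was at 0.651, 0.823 and 0 RPM in T1 and at 5.16, 1.62 and 6.54 RPM in T3, with a log2 difference of 1.78 and an unadjusted limma p of 0.0614. The related name lus-miR159b was the plant-prefixed name with reads in all 3 libraries of T3 and none of T1.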
